A study of Drosophila melanogaster with 4 samples.

Results

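Divergent coding promoters are stretches of DNA from which a pair of protein-coding genes is transcribed in opposite directions. The summits of CG8924 binding described here lay within 500 bp of transcription start sites (TSSs) of 2 or more protein-coding genes on opposite strands. There were 1359 such summits among the 7842 of the authors' list thresholded for reproducibility between replicates (17.3%), or 34.6% of the 3926 summits near any coding start. Chromatin immunoprecipitation with sequencing (ChIP-seq), which locates DNA bound by a protein, was done with an anti-GFP antibody on whole Drosophila melanogaster embryos. The embryos were 0 to 24 h old and of mixed sex, and came from a transgenic line that stably expresses CG8924 with GFP at its C terminus. According to the labels the 4 samples are biological replicates of 1 condition. They do not say which promoter drives the fusion or whether the untagged gene was still present, and the collection mixes cells and stages of the whole embryo.

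In the compact fly genome many neighbouring genes stand head to head, with their starts a short distance apart and the upstream DNA of each gene shared with the other. Such pairs often hold housekeeping genes, which are active in most cells, and the DNA between their starts is typically kept free of nucleosomes. Core promoter motifs of fly housekeeping genes include the DNA replication-related element (DRE), bound by DREF, and Motif 1, bound by M1BP. The Initiator and the TATA box are instead typical of developmentally regulated genes.

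The summit and the 50 bases to either side show what strong divergent sites look like, so 4 of them are printed first, with runs of 8 or more A or T bases in capitals. The sequences are the forward strand of the RefSeq Release 6 (dm6) genome. They cover chr3R:15229483-15229583 for Art3/mRpS10, chr3L:21304517-21304617 for CG11309/CG7632, chr3R:24109133-24109233 for eIF4EHP/CG18428 and chr2L:6066060-6066160 for Fbw5/CG9147, where the reverse-strand gene is named first. Their GC content was 26.7%, 24.8%, 20.8% and 26.7%, and the longest run of A and T in each was 11, 10, 18 and 13 bases.
Art3/mRpS10: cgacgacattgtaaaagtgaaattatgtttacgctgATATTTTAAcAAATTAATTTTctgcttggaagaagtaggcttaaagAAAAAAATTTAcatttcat
CG11309/CG7632: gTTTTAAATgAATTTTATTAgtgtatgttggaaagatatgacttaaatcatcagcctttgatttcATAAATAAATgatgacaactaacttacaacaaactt
eIF4EHP/CG18428: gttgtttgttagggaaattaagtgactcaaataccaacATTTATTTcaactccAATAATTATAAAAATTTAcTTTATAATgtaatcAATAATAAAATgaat
Fbw5/CG9147: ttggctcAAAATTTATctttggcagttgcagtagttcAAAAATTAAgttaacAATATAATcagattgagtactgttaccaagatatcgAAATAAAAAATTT

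Another 3 windows show known promoter motifs within 50 bp of the summit, with the motif in capitals. They are chr3R:26059254-26059354 for RpL34a/Trmt61, with the DRE (TATCGATA) covering the summit, and chr2L:419930-420030 for CG13690/RpLP1, with Motif 1 (GGTCACAC). At chr3L:8600925-8601025 the window of Nelf-E/RpL14 holds Motif 7 (CANCNCTA, where N is any base) 2 times. These 3 are picked examples, each with a ribosomal protein gene, and do not stand for all summits with a motif. GstO1/foi, also with a DRE, had rank 752 by signal against 936 for RpL34a/Trmt61. Ipk2/cold, also with Motif 7, had rank 349 against 697 for Nelf-E/RpL14.
RpL34a/Trmt61: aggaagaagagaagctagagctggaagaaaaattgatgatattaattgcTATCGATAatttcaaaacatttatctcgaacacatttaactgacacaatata
CG13690/RpLP1: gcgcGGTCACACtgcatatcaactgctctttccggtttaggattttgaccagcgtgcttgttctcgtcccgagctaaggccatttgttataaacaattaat
Nelf-E/RpL14: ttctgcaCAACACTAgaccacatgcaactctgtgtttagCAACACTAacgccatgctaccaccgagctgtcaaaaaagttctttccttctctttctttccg

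The rule asks only for opposite strands, so the arrangement of the genes was checked. In 1332 of the 1359 cases (98.0%) the starts stood head to head, and in the replicates' own lists the share was 97.6% ± 0.361 (SD, n = 4). In the other 27 the starts nearest the summit faced each other, with the forward-strand start 2 to 826 bp to the left of the reverse-strand one (median 211 bp). These 27 are not head to head at those starts, and other starts of the same genes were not checked for them. The facing pair of highest signal was CG31808/Cyt-c-d at rank 141, where Cyt-c-d encodes a cytochrome c. This pair was named after its values were seen, as were the summits with 5 or more genes. Most summits, 1281, had 2 coding genes in reach, 69 had 3, 5 had 4 and 2 had 5. A further 2 summits each had 10 coding genes in reach, all of them pre-mod(mdg4) genes, which encode the alternative 3' ends joined to mod(mdg4) messages by trans-splicing. Among the 10 around pre-mod(mdg4)-E and pre-mod(mdg4)-Y the summit had rank 300, and among the other 10, around pre-mod(mdg4)-K and pre-mod(mdg4)-T, rank 6225.

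Signal is the peak signal value given by the authors, comparable only within a list, and rank 1 is the highest. The summit between Art3, an arginine methyltransferase gene, and mRpS10, a mitochondrial ribosomal protein gene, was the highest of all divergent sites, with a signal of 7288 and rank 8 of the thresholded list. It ranked 6, 14, 12 and 7 in replicates 1 to 4, so the replicates placed it close together. The summit lay 125 bp upstream of Art3 and 132 bp upstream of mRpS10, at 15229533 on 3R in an interval from 15229274 to 15229785. The next summit lay at CG11309/CG7632, whose starts are 39 bp apart, and had rank 15 (ranks 24, 9, 16 and 13 in the replicates). It was 91 bp inside CG11309 and 130 bp upstream of CG7632. The third, between eIF4EHP, a cap-binding repressor of translation, and CG18428, had rank 17 (ranks 11, 20, 10 and 19). Fbw5/CG9147 followed at rank 20 (26, 21, 25 and 15), and Fbw5 encodes an F-box protein.

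Among the 20 highest-signal divergent summits supported by all replicates, several gene pairs joined genes of different roles. Chro, which encodes a chromodomain protein of polytene interbands, was paired with the TFIIH subunit gene Ssl1 at rank 21 (23, 18, 27 and 22 in the replicates). The pair of mRpS23, for a mitochondrial ribosomal protein, with CenG1A, for an Arf GTPase-activating protein, had rank 28 (49, 22, 32 and 18). Both stayed within the 50 highest peaks of every replicate. Further down the list were Acbp1/Piezo at rank 50, with the mechanosensitive channel gene Piezo, Pex11ab/CG8320 at 64, with a peroxin gene, and p38a/CG6178 at 72, with a stress-activated kinase gene. Cp190, an insulator protein gene, shared a summit with CG4338 at rank 79 (89, 83, 62 and 85). PolD2, for a DNA polymerase delta subunit, shared one with CG13933 at rank 96. The widest spread in rank among these 20 was at Hrd3/PTPMT1, from 48 in replicate 1 to 180 in replicate 2.

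**Figure D1:**
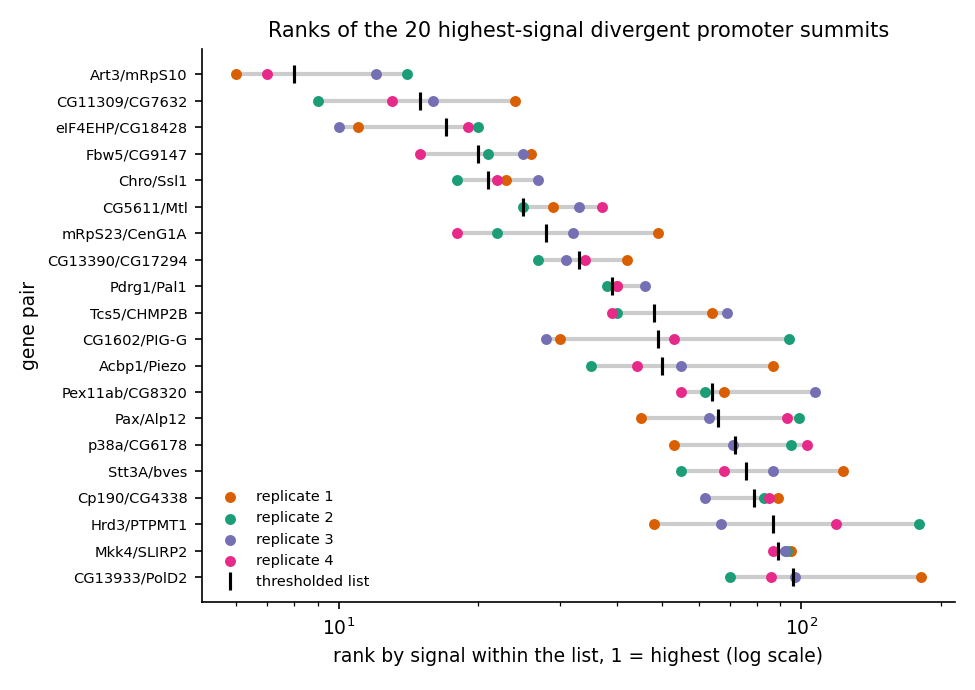
Rank by signal, on a log axis, of the 20 highest-signal divergent promoter summits in each replicate's own list (coloured points) and in the thresholded list (black ticks), 1 gene pair to a line. Grey bars run from the lowest to the highest replicate rank, from 6 to 14 for Art3/mRpS10 and from 48 to 180 for Hrd3/PTPMT1.

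The 1359 summits lay in 1310 distinct intervals and belonged to 1158 gene pairs when each was given to its nearest start on either strand. Of these pairs 957 held 1 summit and the rest held 2. The head-to-head pairs with 2 summits had a median spacing of 304 bp between starts against 276 bp for those with 1. In 91 of the pairs with 2 summits both summits lay between the starts, in 76 exactly 1 did, and in 9 there was a summit inside each gene. The 2 summits of a pair were a median of 203 bp apart and never under 199 bp, and 45 of the pairs had both in 1 interval. No neighbouring summits anywhere in the thresholded list were closer than 199 bp, so closer double sites could not be seen.

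The distance between head-to-head starts had quartiles of 181, 284 and 386 bp over the summits and ran from 1 to 864 bp. Of the 1332 head-to-head summits 997 (74.8%) lay between the starts, upstream of both genes, and in the replicates' own lists 75.1% ± 1.66 (SD, n = 4) did. Summits between the starts were a median of 99.0 bp from the nearer start and 212 bp from the farther one. Of these 538 (54.0%) were within 50 bp of the midpoint. That holds by definition for the 50 of them at spacings up to 100 bp, and the share was not compared with the room for it. The 335 head-to-head summits not between the starts lay inside 1 of the genes, a median of 51.0 bp past its start. They were a median of 213 bp upstream of the opposite gene, at pairs with a median spacing of 123 bp. Seen from single starts, 988 of the 1994 starts (49.5%) on either side of these 997 summits had the summit 75 to 200 bp upstream. At 699 of the 997 summits (70.1%) at least 1 start did, and at 289 both did. These shares were not compared with the room that the spacing leaves for them.

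The share of summits between the starts was read against the room for it. The rule allows a stretch that reaches 500 bp from both starts, and the wider the spacing, the more of that stretch lies between them. Where the starts were 0 to 100 bp apart, 50 of 196 summits (25.5%) lay between them, and the others lay a median of 118 bp upstream of the gene they were not in. With spacings over 100 and up to 200 bp 56.3% lay between the starts. Over 200 and up to 300 bp 83.4% did, a median of 89.0 bp from the nearer and 170 bp from the farther start. Over 300 and up to 500 bp the share was 88.4%, with medians of 112 and 273 bp. The part of the allowed stretch that lies between the starts averaged 6.56%, 17.2%, 34.4% and 63.8% over the summits of these 4 ranges, so both were larger at wider spacings, and their relation was not tested. Above 500 bp all 129 summits lay between the starts, which the 500 bp limit of the rule requires. The median rank was 2728 at spacings over 200 and up to 300 bp and 3401 to 3746 in the other 4 ranges. SerRS/CG17260, whose starts are 8 bp apart and where SerRS encodes seryl-tRNA synthetase, had the summit 34 bp inside SerRS (rank 810). At the other end, Cul5/Bicra had starts 853 bp apart, and its summit lay 497 bp from Cul5, a cullin gene of ubiquitin ligases, and 356 bp from Bicra (rank 1325). For summits near 1 coding gene the median position was 80.0 bp upstream of the start, and 67.2% lay upstream, against 73.8% for divergent summits relative to their nearest start. The rule asks for starts on both strands only at divergent summits, and these shares were not compared with the room for them.

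**Figure D2:**
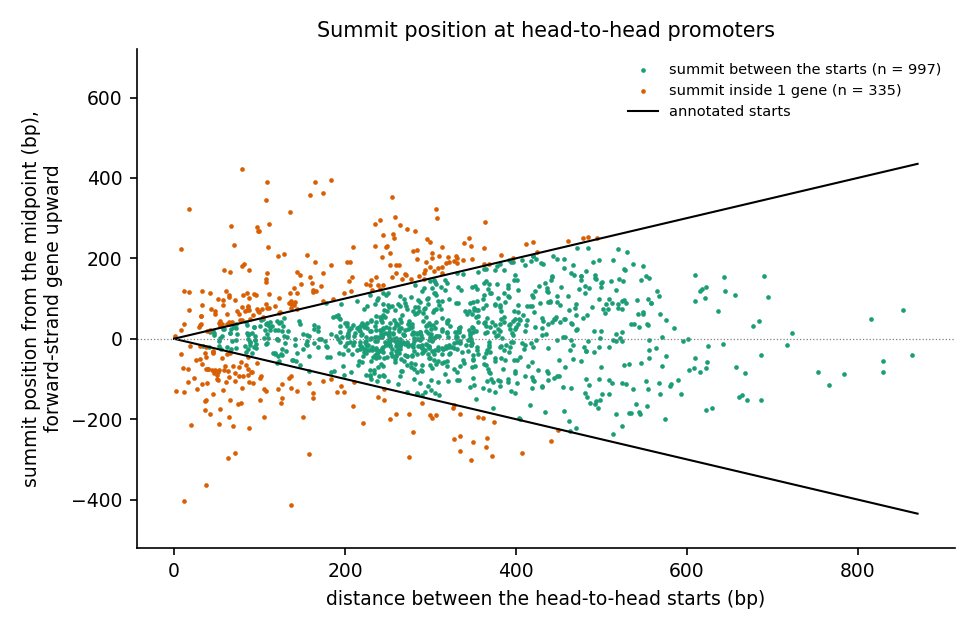
Position of each of the 1332 head-to-head summits relative to the midpoint of the starts (vertical axis, bp, forward-strand gene upward) against the distance between the starts (horizontal axis, bp), with the annotated starts as black lines. The 997 green points lie between the starts, and the 335 orange points, inside 1 gene, had a median spacing of 123 bp.

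The summits were next counted from the side of the genes. The annotation (Ensembl release 115) holds 2667 pairs of coding genes whose starts stand head to head 0 to 1000 bp apart, and 5052 of 13945 coding genes (36.2%) belong to one. Of these pairs 1260, or 47.2% (95% exact binomial interval 45.3 to 49.2, counting error only), had a thresholded summit within 500 bp of starts of both genes. The own lists of replicates 1 to 4, each cut to its 7842 highest peaks, gave 49.6%, 43.1%, 47.1% and 45.9%. All 4 replicate lists shared 896 of the pairs, and 1100 pairs were in none. A further 46 pairs had a separate summit at each gene and 285 had one at 1 gene only, so that 1591 pairs (59.7%) had a summit at either gene. In the full pooled list of 30000 peaks 1657 pairs (62.1%) had a shared summit, 397 of them only below the threshold.

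A shared summit was seen at 52.6% of the 430 pairs with starts up to 100 bp apart, 46.1% of 356 with up to 200 bp, 64.0% of 542 with up to 300 bp and 61.6% of 667 with up to 500 bp, each counted from the end of the range before. The exact intervals of the first 2 ranges (47.7 to 57.4 and 40.8 to 51.4) did not reach that of the third (59.8 to 68.1). The second range holds 38 of the 42 histone cluster pairs, none of which had a summit. Without those pairs, an alternative chosen after seeing the data, the first range stood at 53.1% (48.2 to 57.9) and the second at 51.6% of 318 (45.9 to 57.2). Each of the 4 replicates also gave a higher share in the third range than in the first 2, with and without them. Over 500 and up to 1000 bp 16.7% of 672 pairs shared a summit, but the 500 bp limit leaves little or no room there, and 53.1% had a summit at either gene. Among the 1995 pairs up to 500 bp apart, a range chosen after seeing the data, the share was 57.5%.

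**Figure D3:**
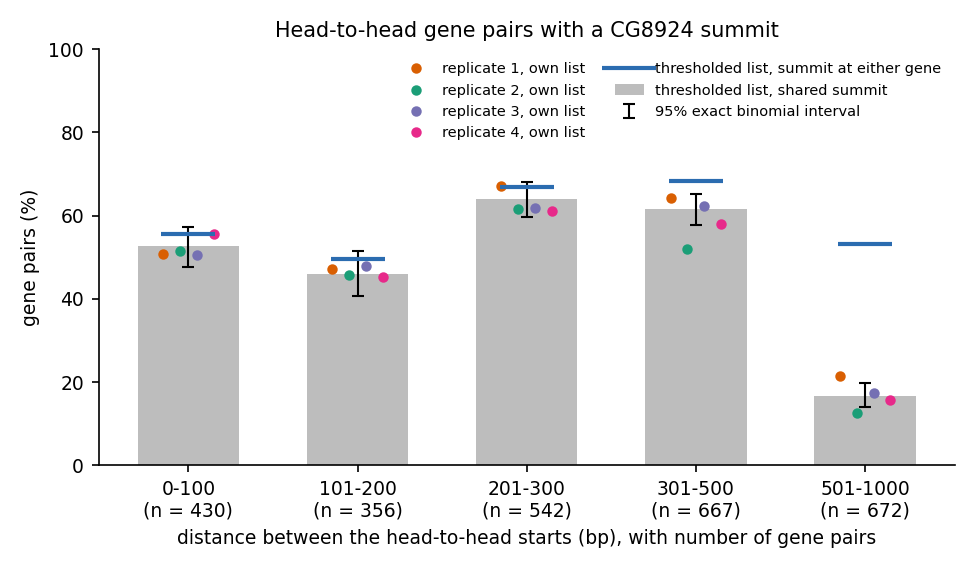
Percent of annotated head-to-head gene pairs with a shared CG8924 summit (bars, thresholded list, with 95% exact binomial intervals; points, each replicate's own list) or with a summit at either gene (blue marks), by distance between the starts in bp. Shares are highest, 64.0% and 61.6%, from over 200 up to 500 bp.

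Genes in head-to-head pairs had a promoter summit more often than other coding genes. Over all coding genes 31.4% had a thresholded summit within 500 bp of a start. The share was 53.6% for the 5052 pair genes and 18.9% for the 8893 others. In replicates 1 to 4 the pair genes stood at 54.9%, 50.9%, 53.7% and 52.6%, and the others at 17.4%, 19.0%, 18.8% and 19.0%, so the ranges were far apart. The difference was 34.5 percentage points ± 2.39 (SD, n = 4), in the same direction in 4 of 4 replicates (exact sign-flip permutation test, two-sided, p = 0.125). With 4 replicates this is the smallest p the test can give, so no comparison here can pass 0.05. A shared summit counts for both of its genes, and promoter activity was not measured, so its part in the difference was not tested.

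Divergent summits stood higher in the lists than the 2501 summits near exactly 1 coding gene. Their median signal was 578 against 508, and their median rank 3331 against 4024 in the thresholded list. In the replicates the median rank was 3304 ± 90.4 against 3906 ± 68.7 (SD, n = 4), a difference of -602 ± 40.5 in 4 of 4 replicates (exact permutation p = 0.125). Among the 3921 highest peaks of each list the difference was -3.75 (exact permutation p = 1.00). With promoter windows of 250 and 1000 bp it was -1223 and -336. The share of divergent summits fell from 20.3% in the 25% of summits of highest signal to 19.8%, 17.0% and 12.2% in each following 25%.

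All 4 replicates supported 1024 of the divergent summits (75.3%, 95% exact interval 73.0 to 77.6), meaning that their own 7842 highest peaks overlapped the peak. Another 214 were supported by 3 replicates, 95 by 2, 25 by 1 and 1 by none. The one without support was Lerp/IntS12, of rank 7168, with ranks 8215, 8115, 7872 and 9065 in the replicates, all past the limit of 7842. Replicates 2, 3 and 4 made the thresholded list, so only replicate 1 is a library outside it, and it supported 94.0% of divergent summits against 81.9% of summits near 1 gene. The other replicates supported 87.7%, 93.2% and 89.6% against 88.4%, 87.6% and 88.4%. The mean difference was 4.51 percentage points and held in 3 of 4 replicates (exact sign-flip permutation p = 0.250). Without replicate 1 it was 1.98, and with the full replicate lists 0.139 (exact permutation p = 0.375).

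The DNA at divergent summits was poor in G and C. In the summit and 50 bases to either side the mean GC content in replicates 1 to 4 was 32.7%, 33.8%, 33.6% and 33.9%, against 35.7%, 38.7%, 38.1% and 39.0% at summits near 1 coding gene. The groups did not overlap, and the difference was -4.40 percentage points ± 0.957 (SD, n = 4) in 4 of 4 replicates (exact permutation p = 0.125). Among summits 50 to 250 bp upstream of the nearest start it was -6.29, and with a promoter window of 1000 bp it was -2.24. Low GC is not particular to divergent sites: thresholded summits near no coding gene had a mean of 32.5%, against 33.2% and 37.4% for divergent and single-gene summits in that list. Runs of 12 or more A or T occurred at 42.8% of divergent and 30.2% of single-gene summits. All 19253 windows of the same length centred 100 bp upstream of coding starts held them in 26.8% of cases and had a mean GC content of 39.1%.

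Away from the summit the order turned. Averaged over the summits, GC content in the thresholded list was 45.0% and 45.6% at 300 bp to either side of divergent summits, and 41.8% and 41.4% beside single-gene summits. Head-to-head summits lay a median of 212 bp from the farther start, so 300 bp out was often past a coding start on each side. Single-gene summits had no other coding gene in reach, and the forward-strand profile was not turned by gene direction. The part of these definitions in the order at 300 bp was not tested. The stronger divergent summits were the poorer in GC. The highest 25% by signal had a mean of 27.7% and the lowest 25% one of 36.9%, with 339 summits in each. In the replicates the highest 25% stood at 27.2% to 29.1% and the lowest 25% at 36.6% to 37.3%. Single-gene summits showed the same order, with 30.9% and 40.8%. In the highest 25% of divergent summits 82.2% of head-to-head ones lay between the starts, against 64.3% in the lowest 25%. Between the starts of pairs 100 to 500 bp apart, mean GC was 34.7% at the 923 pairs with a shared summit and 37.0% at the others, with the lower value at pairs with a summit in 4 of 4 replicates.

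**Figure D4:**
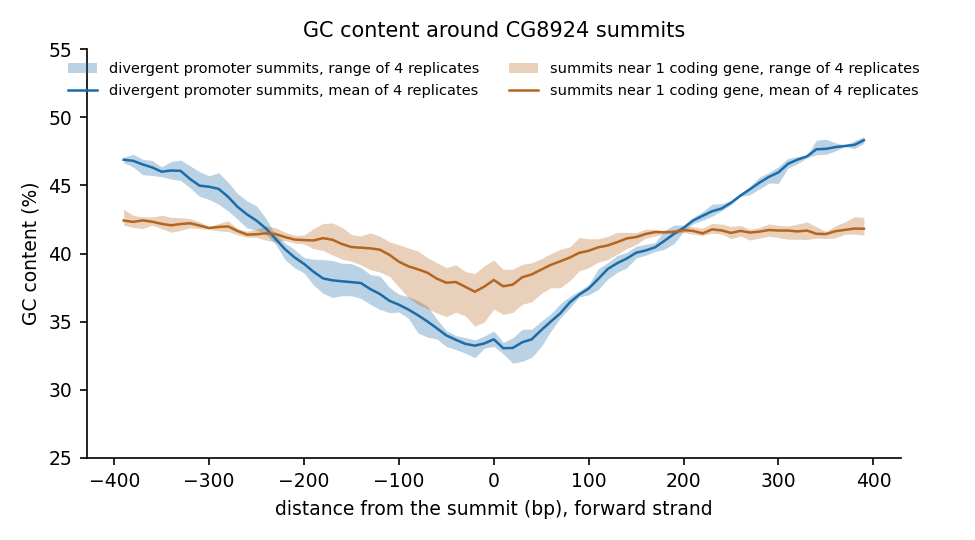
Mean GC content (vertical axis, %, running mean) against the distance from the summit (bp, forward strand) for divergent promoter summits (blue) and summits near 1 coding gene (brown), as the mean (line) and range (band) of the 4 replicates' own lists. The blue line falls lower at the summit and stands at 44.9% and 46.0% at 300 bp to the left and right, where the brown line stands at 41.9% and 41.7%.

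Known motifs were searched as exact words on both strands within 50 bp of the summit. Of 17 motifs 6 had a higher share at divergent than at single-gene summits in all 4 replicates and 5 a lower share, each with an exact permutation p of 0.125 (Benjamini-Hochberg adjusted p = 0.193 over 17). The DRE (TATCGATA), the site of DREF, was at 5.42%, 5.24%, 5.42% and 6.40% of divergent summits in replicates 1 to 4, against 2.66%, 3.27%, 2.44% and 3.03%. All 4 divergent values lay above all 4 others, a mean difference of 2.77 percentage points. It was 1.40 with a 250 bp promoter window, 1.69 in the thresholded list and 0.0793 among summits 50 to 250 bp upstream of the nearest start. Of the 19253 promoter windows 2.27% held a DRE. The word TATAAA was at 24.8% ± 0.692 against 18.2% ± 1.22, and in 16.3% of promoter windows. GTATNTTT (Motif 6) was at 6.59% ± 0.560 against 5.26% ± 0.173, and in 5.23% of windows. TATAAA holds A and T only, and it was searched around the summit, not at a set position from a start. Mean GC content was 33.5% at divergent and 37.9% at single-gene summits in the replicates. The shares of the 17 motifs were not adjusted for GC content, and its part in their differences was not tested.

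For the other 3 higher motifs the direction turned under some choices of summits. Motif 1 (GGTCACAC) was at 3.73% ± 0.639 against 2.62% ± 0.295 (SD, n = 4), with 1.24% of promoter windows. It turned lower with a 250 bp promoter window and among summits 50 to 250 bp upstream of a start. Motif 7 (CANCNCTA) was at 8.32% ± 0.806 against 6.09% ± 0.584, with 3.84% of windows, a difference of 2.22 percentage points that was 0.152 with the 250 bp window and turned lower in the same upstream subset. The E-box CAGCTG was at 6.30% ± 0.227 against 5.32% ± 0.460, with 5.52% of windows, and turned lower in both and in the thresholded list.

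GAGAGAG, the word of the GAGA factor, was rare at divergent summits. It was at 0.0669%, 0.429%, 0.549% and 0.791% of them in replicates 1 to 4, against 1.83%, 4.06%, 3.67% and 4.12% of single-gene summits and 4.46% of promoter windows. CACACAC was at 2.51% ± 0.0957 against 6.19% ± 1.68, with 3.69% of windows. The Initiator word TCAGTT was at 4.90% ± 0.569 against 6.94% ± 0.677, with 6.85% of windows. E2F (TTTNGCGC) was at 1.10% ± 0.225 against 1.91% ± 0.156, with 2.20% of windows. Zelda (CAGGTAG), the word of the activator of the early embryonic genome, was at 0.366% ± 0.0888 against 0.458% ± 0.0296, with 0.660% of windows, and was 0.00168 percentage points higher in the thresholded list.

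**Figure D5:**
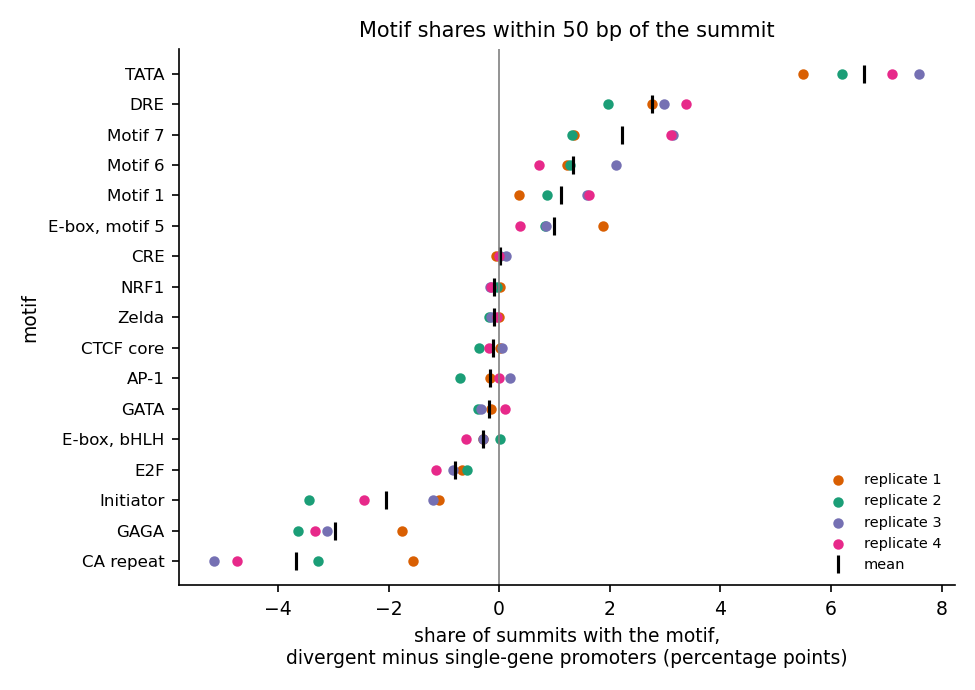
Difference in the share of summits with each of 17 motifs within 50 bp (horizontal axis, percentage points, divergent minus single-gene promoter summits) in each replicate (points) and their mean (ticks). TATA, the DRE and 4 others are above 0 in all 4 replicates, and the CA repeat, GAGA, Initiator, E2F and Zelda words are below 0.

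The motifs of the promoters themselves were compared between pairs with and without a shared summit, with no test, over the DNA between the starts and 100 bp into each gene. Of 893 pairs with Motif 7, 58.9% shared a summit, against 41.4% of pairs without it, a mean difference of 14.7 percentage points ± 2.16 (SD, n = 4 replicates). With a DRE the share was 54.0% against 45.3%. With the Initiator word it was 31.8% of 914 pairs against 55.3%, and with AGATAAG, the word of GATA factors, 28.8% of 177 against 48.6%. These 4 directions held in 4 of 4 replicates. Longer spacings give both more sequence to search and less room for a shared summit, so the pairs over 200 and up to 500 bp apart were taken alone, an alternative chosen after seeing the data. There Motif 7 gave 76.1% against 54.7%, the DRE 71.7% against 60.0%, the Initiator 47.7% against 69.7% and GATA 43.5% against 63.9%. GAGAGAG gave 31.9% against 48.3% over all pairs, but 60.0% against 62.8% among those pairs. Of the 17 motifs, Motif 1, the TATA word, the E-box CACGTG and the CTCF core turned direction there in the thresholded list.

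Gene groups were taken by symbol and read against the 2379 of 5052 pair genes (47.1%) that shared a summit. Genes for making proteins were often paired. Of 73 mitochondrial ribosomal protein genes 58 stood in a head-to-head pair and 38 of those shared a summit, with 36 to 40 in the replicates' own lists. After mRpS10 and mRpS23 came mRpL23/CG9004 at rank 110 (111, 129, 118 and 98 in the replicates). Of 53 paired cytoplasmic ribosomal protein genes 31 shared a summit (30 to 35), led by RpL34b/CG8132 at rank 422, RpS27/Nup37 at 514 and CG13690/RpLP1 at 614. Among aminoacyl-tRNA synthetase genes, 14 of 23 paired genes did (12 to 15), with Hem/IleRS at rank 423. Translation factor genes stood near the background, with 13 of 28. Of the 33 cytoplasmic ribosomal protein genes outside pairs 22 (66.7%) had a promoter summit, against 3 of the 15 mitochondrial ones.

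Genes for making RNA were also often paired. Of 36 spliceosome genes 31 were in a pair and 18 shared a summit (14 to 21), led by U2af50/PIG-Q at rank 364 (540, 288, 358 and 337), where U2af50 encodes the large subunit of the U2 splicing factor. Of 31 paired Mediator and TFIID genes 18 did (16 to 19), with Taf2/CalpB at rank 334, Taf5/Pex6 at 388 and MED30/Rev1 at 551. Of 20 paired RNA polymerase subunit genes 12 did (11 to 14), led by CG10584/Polr3E at rank 200 and 140up/Polr2B at 479.

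Genes for membranes, protein turnover and energy followed. For vesicle traffic 46 of 72 paired genes shared a summit (42 to 53), led by brm/Arl1 at rank 160, where Arl1 encodes a small GTPase of the Golgi, and Fur1/Vps33B at rank 225. For peroxins it was 9 of 12 (9 to 10), with Taf5/Pex6 at 388 after Pex11ab. For the proteasome it was 16 of 26 (14 to 16), with Rpn13/CtsL1 at rank 415 and Rpn6/ave at 1956. For oxidative phosphorylation it was 26 of 48 (54.2%, 25 to 28 in the replicates), near the 47.1% of all pair genes. ND-ASHI/Fum1 had rank 523, where Fum1 encodes fumarase. Nuclear pore genes, with 9 of 20, and V-ATPase genes, with 7 of 14, were near the background. For mitochondrial import it was 3 of 5 and for ubiquitin ligase parts 10 of 17, with tum/Uba3 at rank 577. In the chaperonin and exosome list 6 of 18 did in the thresholded list and 8 to 10 in the replicates. It includes Rrp1 (Rrp1/gammaTub23C, rank 679), a DNA repair endonuclease gene that entered through its symbol.

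Chromatin and cell division genes were counted in the same way. Of 40 paired chromatin regulator genes 27 shared a summit (23 to 28). They were led by brm/Arl1, with the ATPase gene of the Brahma remodelling complex, at rank 160 (171, 130, 192 and 191), where the summit lay 160 bp upstream of brm and 106 bp upstream of Arl1. Sirt6/pont, with the gene of the ATPase Pontin, had rank 179 (192, 172, 152 and 246). E(z)/Cnep1r2, with the Polycomb histone methyltransferase gene E(z), had rank 253 (297, 241, 217 and 227) with starts 16 bp apart. Of 13 paired genes in a joint list of insulator and BTB proteins 7 (53.8%, against 47.1% of all pair genes) shared a summit in the thresholded list and in each replicate. Of the 13 genes of this list outside pairs 9 (69.2%) had a promoter summit, against 18.9% of all unpaired genes. M1BP/CG8202 was among the 7, at rank 283 (234, 589, 136 and 309). M1BP encodes the protein that binds Motif 1. Of 24 paired DNA replication genes 12 shared a summit (10 to 11), near the 47.1% of all pair genes. Of 26 DNA repair genes 14 did (12 to 15), also near that share, with mrva/mus312 at rank 316. Of 8 cyclin and Cdk genes 3 did (3 to 4), below that share. Among them the mitotic kinase gene Cdk1 stood beside mRpS7 at rank 983. Of 19 paired genes for kinesins, dyneins and the centrosome 9 did (7 to 8), again near that share. They were led by SAK/Cdk12 at rank 866, with the centriole kinase gene SAK.

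Developmental and tissue-specific groups came last. Of 52 patterning transcription factor genes as few as 3 were in a head-to-head pair, and none of these 3 shared a thresholded summit. Outside pairs 32.7% of this group had a promoter summit, above the 18.9% of all unpaired genes. Of 13 paired signalling genes 5 shared a summit (3 to 7), among them Krn, an EGFR ligand gene within reach of the summit at Ndfip/CG7484 (rank 467), spi/msb1l at rank 2770, with another EGFR ligand gene, and put/His4r at 4420, with a TGF-beta receptor gene. At spi/msb1l the replicates gave ranks of 1582, 8703, 3378 and 4484, so replicate 2 did not support it. None of 11 paired cuticle protein genes, 1 of 12 cytochrome P450 genes (Cyp9f2/CG5167, rank 2907) and 3 of 26 chemosensory receptor genes shared a summit. The last are Letm1/Ir60b at rank 4477, Gr63a/Lamtor4 at 4694 and CG17768/Ir31a at 5908, and their other genes include Letm1 of the mitochondrial inner membrane and Lamtor4 of the lysosomal Ragulator complex.

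Of 91 paired genes in the histone list 4 shared a summit: His2Av, His3.3A, His4r and HisCl1, the last a histamine-gated channel gene that entered through its symbol. The first had rank 2760, as ball/His2Av, and CG14036/His3.3A had rank 4018. The 42 head-to-head pairs of the repeated histone cluster on 2L, with starts from 21419943 to 21538228, had no summit in the thresholded, pooled or any replicate list. Their copies are nearly identical and the treatment of reads that map to many places is not given in the sources used here, so a value there is uncertain. Without these pairs 48.0% of 2625 head-to-head pairs shared a summit.

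Pairs that joined 2 genes of the same group were few. Besides the histone cluster there were 17, and 4 of them shared a summit, against the background of 47.2%. Of the other 13, 9 are pairs of cuticle protein, cytochrome P450 or chemosensory receptor genes, and without those 4 of 8 pairs shared one. RPA1/Mcm2, both genes of DNA replication, had starts 519 bp apart and rank 1423 (1242, 3344, 1139 and 1507 in the replicates). Pex16/Pex14, both peroxin genes, had rank 2869, Taf10b/Taf10, for TFIID subunits, rank 3230 with starts 45 bp apart, and Exo84/Vps2, for membrane traffic, rank 3945. No shared summit was listed at Cog3/Sec5, Rrp5/Dis3, Ibf2/Ibf1 or insv/Elba2.

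The rule has a limit of 500 bp for the farther gene. Just inside were mfrn/Gp93 at 500 bp (rank 2344), CG43325/CG13510 at 499 bp and Dph2/CG14860 at 498 bp. Just outside were Ncoa6/cype, 1 bp past the limit (rank 5455), and Rpn13/CtsL1, which has another summit inside it, and CG31650/CG33995, both 2 bp past it. The 5 divergent summits of lowest signal, from 296 to 298, were CG32486/PAN3, CG10949/Arpc2, CG14879/Manf, Tmtc3/mago and Tango11/LBR. Their replicate support differed: all 4 replicates supported CG32486/PAN3 (ranks 2050, 1850, 3531 and 1325), while Tmtc3/mago was supported by 1 (ranks 13701, 11138, 8822 and 6274). CG32486/PAN3 had rank 7762 in the thresholded list, in an interval 716 bp wide. Support counts any overlap with the interval, so its replicate ranks may belong to another summit there.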

How the data were processed

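Per the labels, fragments were 200 to 800 bp long and positions are on dm6. The authors deposited peak lists of 4 replicates, a pooled list and a thresholded list, each but the last with 30000 peaks. The signal and the −log10 q-value of each peak are the authors' deposited values, and every thresholded peak has a −log10 q-value of 4.25. Every list was called against the same control, per the deposited notes. Per the same notes, replicates 2, 3 and 4 entered the pooled and thresholded lists and replicate 1 entered neither. Neither aligner nor peak caller is given in the sources used here, and depth is unknown. The thresholded list is identical to the 7842 highest-signal pooled peaks, and replicate lists were cut to that length.

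Summits were compared with TSSs of all transcripts of coding genes (Ensembl release 115) and with the RefSeq Release 6 genome. Each comparison took 1 value per replicate and a two-sided exact sign-flip permutation test, since peaks are not replicates. The labels call the replicates biological without naming separate crosses or collections. Gene pairs were named by a rule: the 20 highest-signal members supported by all replicates, up to 3 per gene list, the closest and widest spacings, values at the limits, pairs within a list and members without support; facing pairs and members with 5 or more genes were chosen after their values were seen. The pairs named for motif windows, apart from CG13690/RpLP1, were outside this rule. The members, 28 gene lists and 17 motifs were chosen with earlier results of these data known. The steps were tested on simulated data. Alternatives changed the promoter window, the starts, the list length, the overlap, the sequence window and the replicates used. Python 3.11.15, NumPy 2.4.6, SciPy 1.17.1, pandas 2.3.3 and matplotlib 3.10.9 were used.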

Additional observations from a re-analysis of the deposited data

Results flagged for a closer look

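Among 46 sets of 4 replicate values, 4 held a replicate that stood apart from the other 3, where chance gives about 1 in 20. Replicate 1 had a promoter summit at 17.4% of coding genes outside head-to-head pairs, against 18.8% to 19.0% in the others. Replicate 1 also supported 81.9% of summits near 1 coding gene, against 87.6% to 88.4%. Replicate 4 had the DRE at 6.40% of divergent summits, against 5.24% to 5.42%. Replicate 3 had the CRE word TGACGTCA at 0.0749% of single-gene summits, against 0.233% to 0.261%. Causes were not tested.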

How the results depend on the processing

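The differences in rank, GC content, support and promoter summits of paired genes kept their sign under the alternatives run, but the rank difference was -3.75 (exact permutation p = 1.00) among the 3921 highest peaks of each replicate and the support difference 0.139 (p = 0.375) with full lists. With a 250 bp window there were 839 divergent summits, 33.0% of pairs shared one and 78.2% were supported by all replicates. With 1000 bp 97.6% were head to head, 56.7% of pairs shared one, 69.8% lay between the starts and 72.5% were supported. With 1 start per gene 96.9% were head to head and 77.1% between. Among the 3921 highest thresholded peaks there were 787, with 29.7% of pairs, 79.3% between and 95.8% supported. Support was 36.2% with an overlap of 50% of both peaks, 53.9% for summits within 100 bp and 97.7% with full lists, and 77.7% to 81.1% when 1 replicate was left out. The rank difference was -693 in the thresholded list, -1223 with 250 bp and -336 with 1000 bp, where the GC difference was -2.24. Among pairs up to 500 bp apart, added after seeing the data, 57.5% shared a summit. The number of motifs higher in every replicate fell from 6 to 2 with a 250 bp window and to 2 among summits 50 to 250 bp upstream. The DRE difference was 1.40 at 250 bp and 0.0793 upstream, and Motif 7 was 0.152 at 250 bp. Directions turned for Motif 1 (-0.514 at 250 bp, -0.205 upstream), Motif 7 (-0.266 upstream), the CAGCTG word (-0.133, -1.46 and, in the thresholded list, -0.405) and Zelda (0.00168 in that list), in percentage points. Among pairs over 200 and up to 500 bp apart they turned for 4 of 17 motifs: Motif 1 (-1.43 in the thresholded list, but 1.22 as the mean of the replicates, higher in 4 of 4), TATA (1.85), CACGTG (9.51) and the CTCF core (4.79). The causes were not tested. No paired analysis was possible because there is 1 group and so no replicate number to share between groups; the differences above were already taken within each replicate. Depth is unknown, and peaks within a list share their libraries and control.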

Other observations

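Head-to-head pairs with a shared summit were also counted by chromosome arm. A shared summit was found at 54.2% of head-to-head pairs on 3R (48.6% to 56.2% in the replicates' own lists), 48.8% on 3L (44.0% to 51.7%), 45.4% on 2L (41.3% to 45.8%; 49.5% without the histone cluster pairs), 43.3% on 2R (41.6% to 46.2%) and 41.7% on X (36.5% to 45.9%). On chromosome 4 it was found at 3 of 11 pairs (27.3%, with 27.3% to 36.4% in the replicates' own lists). The ranges over replicates are those of single lists and were not tested.

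The most frequent words of 8 bases at divergent summits held A and T only. AAATAAAT, or its reverse complement, was within 50 bp of 144 summits (10.6%) against 6.08% of single-gene summits, and in the replicates at 9.79% to 10.4% against 5.21% to 7.36%. The second, AAATAAAA, was at 8.68% against 7.28%, and the third, AATTTAAA, at 8.02% against 4.08%. The words were ranked on the same summits.

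Among the 27 summits at facing starts, 2 more gene pairs were named after their values were seen. CG5846/CG4658 had rank 322 (467, 244, 372 and 287 in the replicates), with the forward-strand start 105 bp to the left of the reverse-strand one. CG4741/Adck1 had rank 362 (342, 281, 650 and 378).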
